A study of Mus musculus with 5 samples.

Results

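The genes described here are the Wnt ligands, their Frizzled and LRP receptors, the secreted antagonists and a set of nuclear and feedback genes of the pathway. They were taken by gene symbol: any symbol that starts with Wnt, Fzd or Dkk and a digit or with Sfrp, together with Frzb, Wif1, Sost, Lrp5, Lrp6, Lef1, Tcf7, Axin2, Nkd1, Rnf43 and Znrf3. On the array 94 probe sets with a single annotated symbol met the rule and covered 48 of the 18193 genes measured, of which 19 were ligands, 12 receptors, 11 secreted antagonists and 5 intracellular or feedback genes. The remaining symbol, Fzd10os, belongs to a transcript opposite to Fzd10 and is not a receptor. No probe set was annotated to Tcf7 alone, and this gene was not analysed here. For each gene the probe set with the highest mean over the arrays was used.

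RNA came from 2 arrays of the bone sub-line of NT2.5 cells (passages 6 and 3), 2 arrays of its liver counterpart (passages 3 and 1) and 1 array of the parental, unselected NT2.5 cells, which the labels call wild type. NT2.5 is a mouse mammary tumour line from animals that carry the neu (ErbB2) oncogene as a mammary transgene, and all 5 samples descend from it. By the labels, the bone sub-line prefers to metastasise to bone, the liver sub-line to liver, and parental cells to bone, liver and lung. Each sub-line is 1 lineage, and the sources used here do not state whether a passage was made in culture or in an animal. Every condition has a single array. The 2 passages of each sub-line therefore took the place of replicates, and p-values cover the spread among these arrays alone, which may be technical.

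Wnt proteins are secreted, lipid-modified glycoproteins that bind Frizzled receptors. With the co-receptors LRP5 and LRP6 they stabilise beta-catenin, which enters the nucleus and activates genes with factors of the TCF/LEF family. Secreted antagonists of the SFRP and DKK families bind the ligands or the LRP co-receptors, and targets such as Axin2, Nkd1, Rnf43 and Znrf3 feed back to dampen the signal. The pathway directs mammary gland branching and, in the skeleton, bone formation.

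The deposited values are intensities per probe set on a linear scale. A probe set's intensity also depends on its own probes, so levels were compared between arrays and never between genes. The median over all probe sets lay between 21.9 (bone passage 6) and 26.4 (bone passage 3). On the log2(intensity + 16) scale used throughout, the bone passage 6 median was 0.15 below the parental one, which weighs on dim genes. Epithelial genes were present in every array, with Krt8 at 3406 to 4829, Krt18 at 5918 to 7880 and Epcam at 3761 to 4384, whereas Krt19 stayed at or below 3.3. Krt14 was the most variable of the epithelial genes, at 1319 and 1367 in bone, 989 and 496.5 in liver and 1023 in parental cells. The mouse Erbb2 probe set gave 320 and 342 in bone, 280 and 212 in liver and 312 in parental cells. Fewer cells of a type and less RNA per cell cannot be told apart in such bulk samples.

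Of the 48 genes, 32 reached the median of all intensities (25.1) on at least 1 array and were tested within a fit of 12587 genes. The 16 that did not were the ligands Wnt1, Wnt2, Wnt2b, Wnt3, Wnt8b, Wnt9b, Wnt10b and Wnt16, the receptor Fzd9 and 7 antagonists, namely Dkk1, Dkk2, Dkk4, Frzb, Sfrp2, Sost and Wif1. Their highest intensity on any array ran from 1.9 for Wif1 to 24.3 for Wnt9b. Among the 11 antagonists only Sfrp1, Sfrp4, Sfrp5 and Dkk3 were thus tested. The bone-associated inhibitor Sost, which osteocytes secrete, was at or below 8.7 in all 5 arrays, and Dkk1, known from breast cancer lesions in bone, at or below 15.3.

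Limma called 0 of the 32 members at an adjusted p under 0.05 in any of the 3 comparisons of lines, where it called 0.135% of all genes for bone against parental, 0.0159% for liver against parental and 0.191% for bone against liver. At an unadjusted p under 0.05, 3 members stood apart for bone against parental (9.38%, with 8.17% of all genes), 2 for liver against parental (6.25%, with 7.48%) and 2 for bone against liver (6.25%, with 14.1%). The median log2 difference of the members was -0.06 for bone against parental, 0.04 for liver against parental and -0.10 for bone against liver, beside -0.019, 0.014 and -0.023 over all genes tested. All 6 shares thus lay near or below those of the whole array, and differences of single members are given as values. At least 2-fold apart between some pair of arrays were 8 members, Wnt10a, Wnt3a, Wnt4, Wnt5b, Fzd8, Sfrp1, Axin2 and Lef1 (25% of 32, with 17.1% of all genes). Without bone passage 6, an omission chosen after seeing the data, 5 remained, namely Wnt10a, Wnt3a, Sfrp1, Axin2 and Lef1 (13% of all genes).

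**Figure D1:**
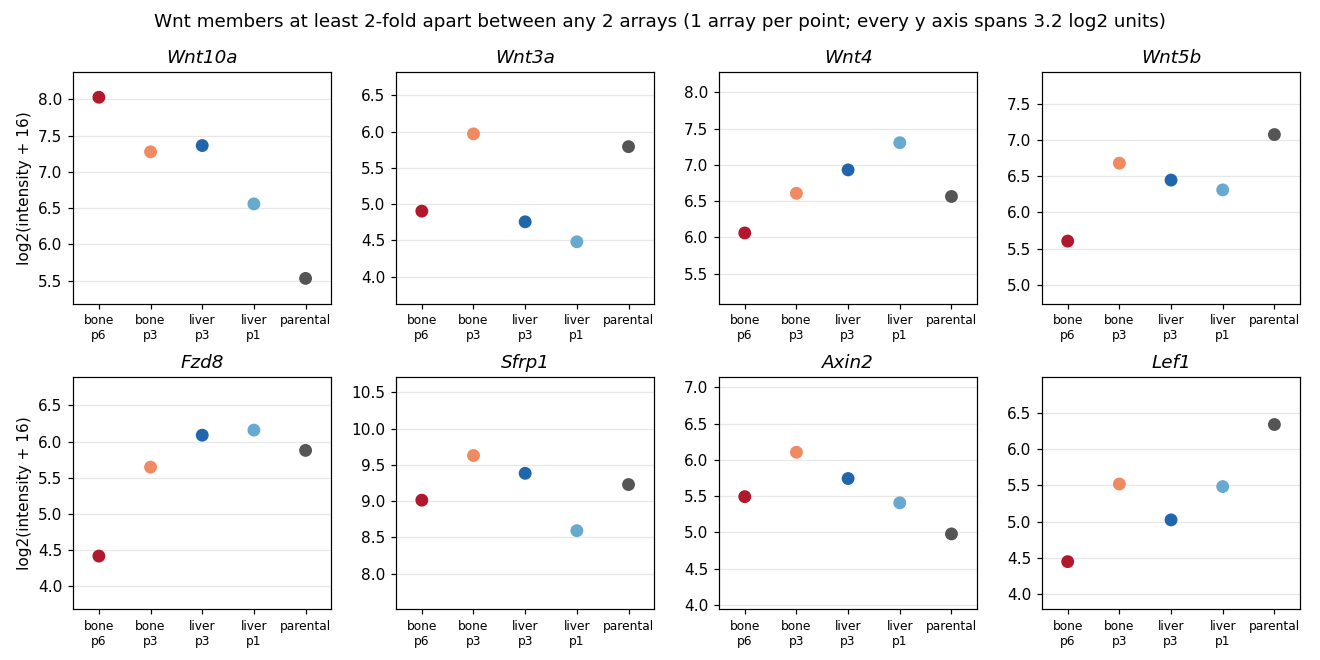
Level of the 8 members that differed at least 2-fold between some pair of arrays, as log2(intensity + 16) in the bone sub-line at passages 6 and 3, the liver one at passages 3 and 1 and parental cells. Each point is 1 array, and every vertical axis spans the same number of log2 units. Wnt10a is lowest and Lef1 and Wnt5b are highest in parental cells.

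The ligand that stood out was Wnt10a, an activator of beta-catenin signalling known for its roles in teeth, skin appendages and fat cell fate. Its probe set (1460657_at) gave 245 at bone passage 6 and 139 at bone passage 3, 149 at liver passage 3 and 78.2 at liver passage 1, against 30.2 in parental cells. All 4 sub-line arrays lay above the parental array, as for 9 of the 32 members (28.1%, with 17.7% of all genes). In each sub-line the final passage lay above the early one. The bone sub-line was 4.36-fold higher than parental cells (log2 difference 2.12 ± 0.44, SE, n = 2 and 1; limma adjusted p = 0.231). For the liver sub-line the difference from the same parental array was 2.70-fold (1.43 ± 0.44; adjusted p = 0.524). It was the only member at least 2-fold above parental cells in both bone passages, as were 1% of all genes, and the only one in both liver passages, as were 0.858% of all genes. Final against early passage differed by 1.69-fold in bone and 1.75-fold in liver, each 1 array against 1. Between bone passage 3 and liver passage 3, the passage number shared by both sub-lines, Wnt10a differed by -0.087 on the log2 scale. A single probe set measured the gene.

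Wnt5b, a ligand linked mostly to beta-catenin-independent signalling, was brightest where Wnt10a was dimmest, in parental cells. Probe set 1439373_x_at gave 32.6 and 86.4 at bone passages 6 and 3, 71.1 and 63.3 at liver passages 3 and 1, against 118.6 in parental cells. The other probe set, 1422602_a_at, gave 36.6 and 46.9 in bone and 83.6 and 45.7 in liver, against 105.8 in parental cells. In both probe sets the parental array was the brightest and bone passage 6 the dimmest. The log2 difference was -0.93 ± 0.43 for bone against parental (SE, n = 2 and 1; limma adjusted p = 0.659) and -0.70 ± 0.43 for liver against parental (adjusted p = 0.786). Neither passed. The suffix x of the first probe set marks probes that can also bind other transcripts.

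Wnt3a, a classical activator of beta-catenin signalling, split the arrays differently. It gave 13.9 at bone passage 6, 11.0 at liver passage 3 and 6.3 at liver passage 1, against 39.4 in parental cells, but 46.6 at bone passage 3. Bone passage 3 and parental cells were thus the 2 arrays above the filter of 25.1, and the other 3 lay below it. Liver against parental gave -1.17 ± 0.44 (SE, n = 2 and 1; limma adjusted p = 0.627), with both liver passages at least 2-fold lower, as were 0.93% of all genes. At the shared passage number 3, Wnt3a was the only member at least 2-fold apart between bone and liver (2.32-fold higher in bone), where 4.58% of all genes were.

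Wnt4, a ligand that acts downstream of progesterone in mammary side branching, gave 50.8 and 81.6 at bone passages 6 and 3, against 106.1 and 142.4 at liver passages 3 and 1, with 78.7 in parental cells. Every bone value lay below every liver value. Bone against liver gave -0.78 ± 0.26 (SE, n = 2 each; limma adjusted p = 0.261), and a second, dimmer probe set had 16.2 and 11.4 against 24.1 and 22.3. The parental value lay just under that of bone passage 3.

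The remaining 7 tested ligands spanned less than 2-fold over the 5 arrays. Wnt7b, a mammary epithelial ligand, gave 1666 and 1246 at bone passages 6 and 3, 1360 and 1237 at liver passages 3 and 1 and 1161 in parental cells. Its second probe set was likewise brightest at bone passage 6 (1058) and dimmest in parental cells (664), and the fit gave 0.31 ± 0.26 for bone against parental (limma adjusted p = 0.856). Wnt9a gave 194.1 at both bone passages, 270.5 and 228 at the liver passages and 291.4 in parental cells (-0.55 ± 0.23 for bone against parental; limma adjusted p = 0.608). Wnt6, Wnt7a and Wnt11 ranged by 0.39, 0.22 and 0.24 log2 units in their brightest probe sets, between 33.1 and 60.1 on all arrays. A dimmer Wnt7a probe set differed in size, with 31.9 and 12.9 in bone and 16.4 and 1.8 in liver, against 1.4 in parental cells (range 1.46). It and the brightest Wnt7a probe set were both dimmest in parental cells. Wnt5a and Wnt8a barely reached the filter, with highest values of 25.1 and 26.8.

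**Figure D2:**
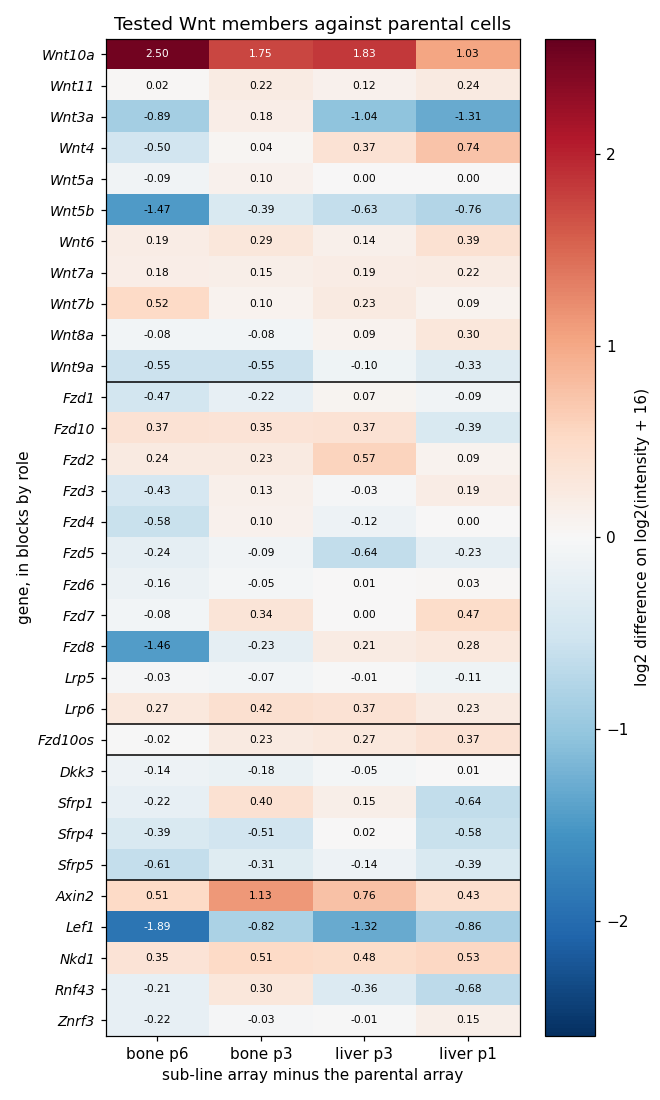
Log2 difference of each sub-line array from the parental array, on log2(intensity + 16), for the 32 tested members in blocks from top to bottom of ligands, receptors, the opposite-strand RNA, secreted antagonists and intracellular or feedback genes. Columns are bone passages 6 and 3 and liver passages 3 and 1. All columns share the parental array, so they are not independent. Wnt10a (1.03 to 2.5) and Lef1 (-1.89 to -0.82) keep 1 direction throughout, as do other members. All 4 columns are above 0 for 9 of the 32 members and below 0 for 6, with 17.7% and 18.1% of all genes. Most receptors are pale.

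Of the 12 receptors 11 were tested, and all but Fzd8 spanned less than 2-fold. The steadiest was Lrp5, a co-receptor that also governs bone mass, at 137.5 and 133.7 in bone, 139.8 and 129.4 in liver and 140.8 in parental cells. Fzd6, a receptor of planar polarity, ranged by 0.19 log2 units, with 829 and 894.5 in bone, 931 and 946.2 in liver and 926.4 in parental cells. The co-receptor Lrp6 gave 650.6 and 722.4 in bone, 698 and 632.4 in liver and 536.8 in parental cells. Its log2 difference was 0.34 ± 0.22 for bone and 0.30 ± 0.22 for liver against parental (SE, n = 2 and 1 each; limma adjusted p = 0.782 and 0.821). For Lrp5 the unadjusted 95% confidence interval for bone against parental ran from -0.57 to 0.48, so a difference inside it was not excluded.

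Fzd7, the receptor linked to stem-like and basal mammary cells, was lower at the final passage of each sub-line. It gave 1025 at bone passage 6 against 1375 at bone passage 3, and 1086 at liver passage 3 against 1512 at liver passage 1, with 1085 in parental cells. The second probe set had the same order in both sub-lines, with 50.2 against 79.2 in bone and 58.7 against 86.8 in liver. These are pairs of single arrays without a test. Fzd2 was brightest at liver passage 3 in all of its 3 probe sets, at 374.5 in the leading one, with 263.5 at liver passage 1, 293.5 and 292.2 in bone and 246.4 in parental cells. Fzd5 gave 434.9 and 484.1 in bone, 324.4 and 436.4 in liver and 515.2 in parental cells. Fzd3 gave 101 and 157 in bone, 138.1 and 163.4 in liver and 141.8 in parental cells, and its 6 probe sets did not share 1 order.

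Fzd8 was the receptor with the widest range, at 5.4 and 34.1 at bone passages 6 and 3, 52 and 55.4 at liver passages 3 and 1 and 42.8 in parental cells. The bone passage 6 value set that range. Bone against liver gave -1.09 ± 0.39 (SE, n = 2 each; limma adjusted p = 0.297). Without bone passage 3 the difference was -1.70 and passed (limma adjusted p = 0.0477), the single alternative in which limma called a member. That fit rests on 1 bone array. The second probe set of Fzd8 stayed at or below 5 on all arrays. Fzd1, Fzd4 and Fzd10 ranged by 0.54, 0.69 and 0.76 log2 units.

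Among the secreted antagonists Sfrp1, which binds Wnt ligands and is often silenced in breast cancer, differed mainly at liver passage 1. It gave 501.1 and 776.7 at bone passages 6 and 3 and 652.4 and 370.3 at liver passages 3 and 1, with 584.4 in parental cells. The basal keratin gene Krt14 was also dimmest at liver passage 1, and its part in the Sfrp1 values was not tested. All 5 Sfrp1 probe sets were dimmest at liver passage 1 and brightest at bone passage 3, although they measure 1 transcript in the same samples and are no replicates. Over these probe sets final against early passage gave log2 differences of 0.67 to 0.79 in liver and of -0.62 to -0.28 in bone. Bone and liver each held an array above and an array below the parental one, and the fits gave 0.09 ± 0.41 and -0.24 ± 0.41 (SE, n = 2 and 1 each; limma adjusted p = 0.979 and 0.936). Sfrp4 gave 52.6 and 47.2 in bone, 74.9 and 44.1 in liver and 73.7 in parental cells. Sfrp5 gave 25.5 and 35.2 in bone, 41.5 and 32.3 in liver and 47.4 in parental cells. Dkk3 ranged by 0.19 log2 units. The median over these 4 genes was -0.30 for bone against parental and -0.25 for liver against parental, and 0 passed (0 at an unadjusted p under 0.05).

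**Figure D3:**
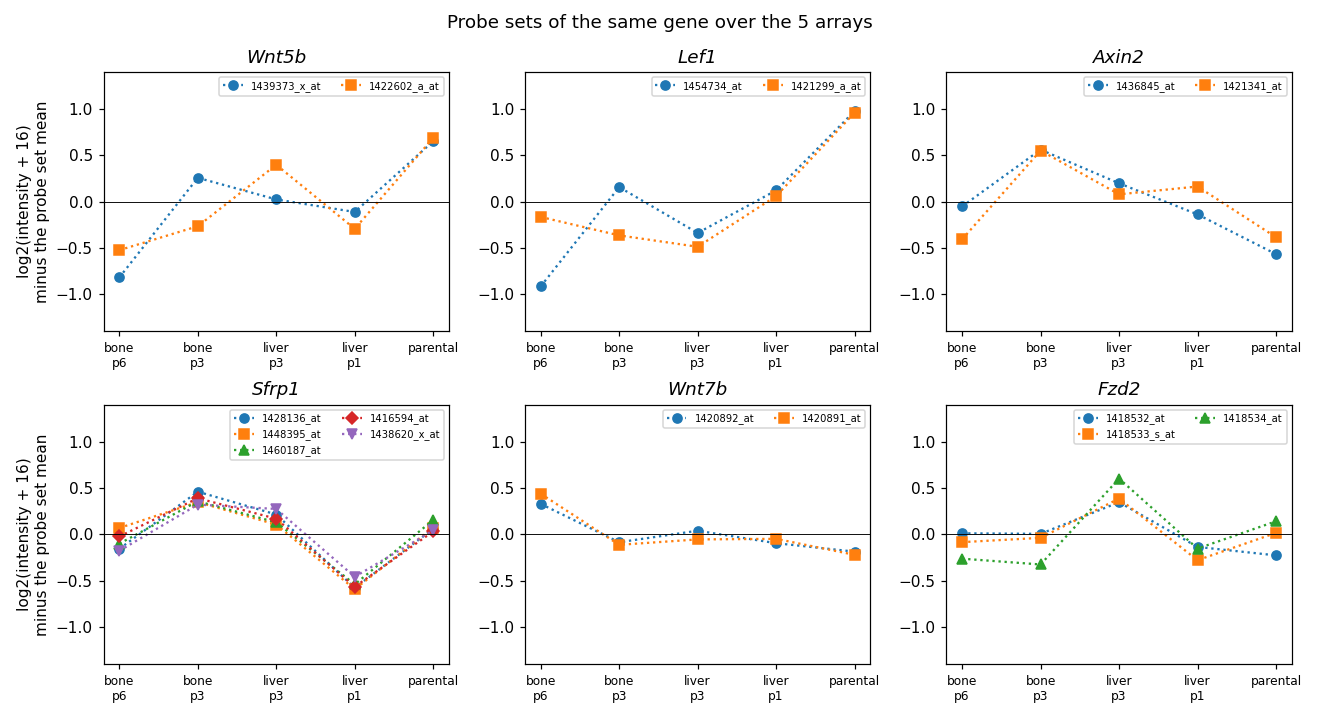
Probe sets of 6 members over the 5 arrays, each as log2(intensity + 16) minus its own mean over the arrays. Dotted lines only join the points of a probe set, which carry its name. The 5 Sfrp1 probe sets run together with their minimum at liver passage 1, both Lef1 and both Wnt5b probe sets peak in parental cells, and the Lef1 probe sets part at bone passage 6.

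The nuclear and feedback genes differed in direction. Lef1, a transcription factor that carries beta-catenin to DNA, gave 5.8 and 29.8 at bone passages 6 and 3 and 16.5 and 28.7 at liver passages 3 and 1, against 64.9 in parental cells. Its second probe set gave 6.5 and 3.6 in bone and 2.0 and 10.3 in liver, against 33.1 in parental cells. All 4 sub-line arrays were below the parental array in both. In the probe sets used for the fit, 6 of the 32 members had this order (18.8%, with 18.1% of all genes). The log2 difference was -1.36 ± 0.46 for bone against parental, that is 2.56-fold lower (SE, n = 2 and 1; limma adjusted p = 0.487), and -1.09 ± 0.46 for liver against parental, 2.12-fold lower (adjusted p = 0.677). Neither passed, and 6 of the 8 sub-line values over both probe sets lay below the filter of 25.1.

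Axin2, a negative regulator that is widely used as a readout of beta-catenin signalling, had the opposite direction. It gave 29.0 and 52.8 at bone passages 6 and 3 and 37.5 and 26.4 at liver passages 3 and 1, against 15.5 in parental cells. All 4 sub-line arrays were above the parental array, by 0.43 to 1.13 log2 units, as for 9 of the 32 members (17.7% of all genes). Bone against parental gave 0.82 ± 0.32 (SE, n = 2 and 1; limma adjusted p = 0.591) and liver against parental 0.60 ± 0.32 (adjusted p = 0.757). The second probe set gave 3.0 and 20.9 in bone, 10.6 and 12.2 in liver and 3.3 in parental cells, so there bone passage 6 was no higher than parental cells. Nkd1, which binds Dishevelled and dampens the signal, gave 22.7 and 27.1 in bone, 26.2 and 27.8 in liver and 14.3 in parental cells, and another of its 4 probe sets had the bone arrays (13.1 and 6.8) below parental cells (18.3). The ubiquitin ligases that remove Frizzled from the cell surface differed in spread. Znrf3 ranged by 0.37 log2 units. Rnf43 ranged by 0.98, just under 2-fold, and gave 39.4 and 62.7 in bone, 33.7 and 23.9 in liver and 47.9 in parental cells (0.57 ± 0.24 for bone against liver; limma adjusted p = 0.362).

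Sequence around the annotated starts is given for 3 members of the 2-fold set that peak or dip in parental cells, because Lef1 is itself a TCF/LEF factor and Axin2 a classical target of such factors. The windows are RefSeq promoters of build GRCm38.p6, 250 bases before to 50 after an annotated start, on the strand of the gene. Capitals mark the TCF/LEF core CTTTGA or its reverse complement TCAAAG, searched on both strands. Lef1 has 4 windows, of which the one at chr3:131156044-131156343 (+) held the core at 180 and 120 bases before the start. Wnt5b has 3, of which chr6:119449337-119449636 (-) held it at 71 bases before the start. For each gene the window with the most matches was chosen for printing, and the other Lef1 and Wnt5b windows lacked the core. The Axin2 window, chr11:108920099-108920398 (+), does not hold these letters. Which start these cells use was not measured.
Lef1: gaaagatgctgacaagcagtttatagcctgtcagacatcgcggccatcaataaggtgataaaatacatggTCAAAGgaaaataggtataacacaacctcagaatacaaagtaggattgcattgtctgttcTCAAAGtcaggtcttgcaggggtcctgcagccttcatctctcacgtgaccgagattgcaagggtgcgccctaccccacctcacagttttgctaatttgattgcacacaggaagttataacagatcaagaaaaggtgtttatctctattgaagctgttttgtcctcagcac
Wnt5b: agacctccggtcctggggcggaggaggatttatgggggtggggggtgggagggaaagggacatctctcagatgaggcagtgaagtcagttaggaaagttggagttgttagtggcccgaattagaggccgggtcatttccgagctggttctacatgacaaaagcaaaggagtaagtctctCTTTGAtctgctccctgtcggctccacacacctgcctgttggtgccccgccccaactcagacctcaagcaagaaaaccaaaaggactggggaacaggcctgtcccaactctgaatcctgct
Axin2: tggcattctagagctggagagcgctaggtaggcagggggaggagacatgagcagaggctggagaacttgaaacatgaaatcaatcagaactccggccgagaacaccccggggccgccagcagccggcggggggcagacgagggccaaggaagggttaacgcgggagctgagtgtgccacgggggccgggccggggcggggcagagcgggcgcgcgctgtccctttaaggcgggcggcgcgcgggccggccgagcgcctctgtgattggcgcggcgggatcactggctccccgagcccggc
Of the 48 members, tested or not, 32 had a window counted here, 17 of them tested. In all, 6 of these 39 windows held the core (Dkk1, Frzb, Fzd1, Lef1, Wnt11 and Wnt5b, of which 4 were tested), which is 15.4%, with 16% of the 32851 windows of all genes. Any member window on an excluded chromosome is missing from these counts, whereas the windows of all genes had no such exclusion. A match of the core letters is a description and not a binding site. Fzd8, Sfrp1 and Wnt10a are not shown.

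The passages within each sub-line were set against each other as single arrays. At bone passage 6 against bone passage 3, 4 members were at least 2-fold lower, Fzd8 (-1.23), Wnt5b (-1.08), Lef1 (-1.07) and Wnt3a (-1.07 on the log2 scale), or 12.5% of 32, where 2.07% of all genes were. The members at least 2-fold higher numbered 0, with 0.358% of all genes. All 4 were dim. With a mean intensity under 100, 4 of 20 members and 3.79% of all genes were that much lower at bone passage 6. At or above 100, 0 of 12 members and 1.13% of all genes were, a division made after seeing the data. After median centring or quantile normalization of the arrays only Fzd8 stayed past 2-fold, and the other 3 lay between -0.95 and -0.90. The second probe sets of Wnt5b and Lef1 gave -0.26 and 0.20. Bone passage 6 was the dimmest array for 13 members (40.6%, with 26.1% of all genes). After median centring it was so for 9 of the 32, with 13.2% of all genes, and after quantile normalization for 11, with 19.4% of all genes. At liver passage 3 against liver passage 1, 0 members were 2-fold apart, where 2.79% of all genes were, and the widest difference was that of Wnt10a (0.81). Liver passage 1 was the brightest array for 13 members (40.6%, with 24.7% of all genes).

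**Figure D4:**
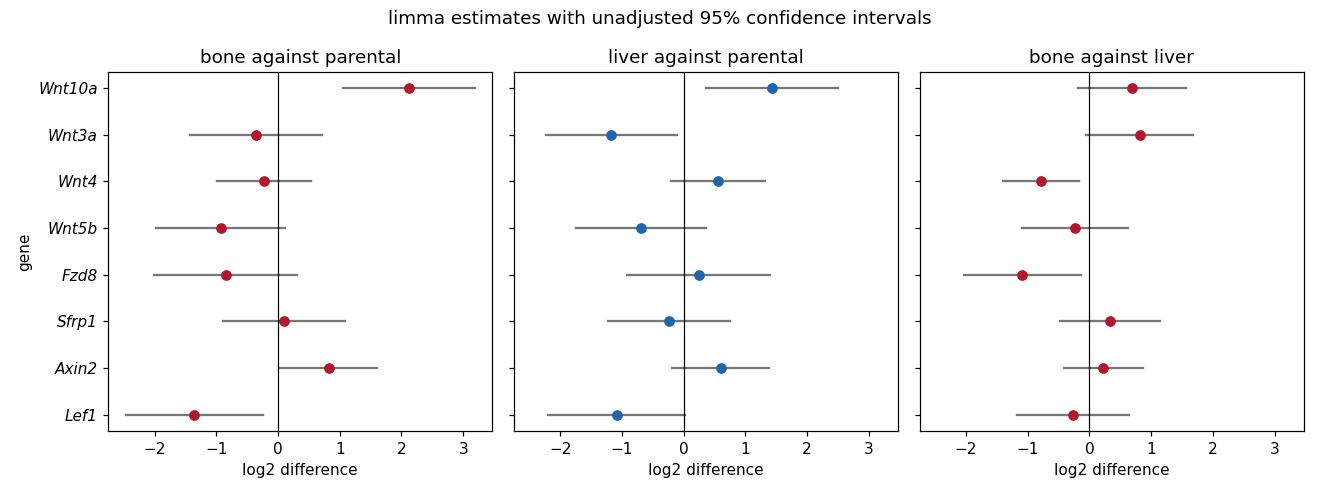
Limma log2 differences of the 8 members for bone against parental, liver against parental and bone against liver, with unadjusted 95% confidence intervals (n = 2 bone, 2 liver and 1 parental array). Wnt10a lies farthest to the right against parental cells, at 2.12 for bone and 1.43 for liver. None of the 24 adjusted p-values was under 0.05.

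Between the sub-lines, Wnt4 and Fzd8 were the 2 members at an unadjusted p under 0.05, both lower in bone (as were 9.06% of all genes), and 0 members were 2-fold or more apart in each bone-liver pair, where 1.06% of all genes were. Markers of other cells differed between the same arrays. The summed intensity of 9 measured macrophage genes, 6 of them past the filter, was 275 and 289 in bone and 531 and 620 in liver, with 209 in parental cells. That of 10 fibroblast genes, 4 past the filter, was 214 and 307 in bone and 472 and 453 in liver, with 348 in parental cells. Of those past the filter, Postn gave 56.7 and 131.4 in bone and 223.8 and 198 in liver. Pdgfra gave 48.8 and 71.6 in bone and 124.5 and 138.3 in liver. The other fibroblast genes past the filter were Col1a2, at 38.1 and 52.2 in bone and 39.3 and 34.4 in liver, and Col1a1, at 15.6 and 15.4 in bone and 16.1 and 28.1 in liver. Among the macrophage genes, Csf1r gave 107 and 89.3 in bone and 220 and 169 in liver, and Cd68 74.8 and 103 in bone and 172 and 173 in liver. Fcgr3 gave 1.1 and 1.3 in bone and 19.7 and 30.4 in liver, and Lyz2 22.7 and 26.5 in bone and 42.2 and 140 in liver. Adgre1, also past the filter, gave 36.1 and 42.5 in bone, 27.6 and 49.9 in liver and 31.8 in parental cells. The pan-leukocyte gene Ptprc gave 9.4 and 12.9 in bone and 6.1 and 25.7 in liver, and Marco stayed at or below 4.4 on all arrays. Of 5 measured osteoblast genes 2 were past the filter. The 5 summed to 448 and 526 in bone and 182 and 197 in liver, with 537 in parental cells. These sums followed Alpl, at 395 and 445 in bone, 108 and 143 in liver and 470 in parental cells. Sp7, also past the filter, did not separate bone from liver, at 34.9 and 58.4 in bone, 56.5 and 34.3 in liver and 34.4 in parental cells. Ibsp, Dmp1 and Phex stayed at or below 16.2 on all arrays. Summed endothelial and hepatocyte genes stayed between 131 and 292 and between 67.7 and 115.9. The part of such cells in the Wnt4 and Fzd8 values was not tested.

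Other genes of the pathway were taken from 4 lists. Of 17 tested genes for secretion, co-receptors and receptor regulators, limma called 1, Sostdc1, against parental cells in both sub-lines. It encodes a secreted inhibitor of BMP and Wnt signalling. Of all genes, 0.135% (bone) and 0.0159% (liver) were called. The lists were drawn up with earlier results of these data known, so this count is not a test of the list. At an unadjusted p under 0.05 there were 3 of the 17 for bone against parental, 3 for liver against parental and 6 for bone against liver, with 8.17%, 7.48% and 14.1% of all genes. Sostdc1 gave 1962 and 2456 in bone and 956.2 and 1133 in liver, against 69.3 in parental cells (log2 difference 4.70 ± 0.26 for bone and 3.63 ± 0.26 for liver; limma adjusted p = 0.00745 and 0.0356). With no filter on dim genes these became 0.0658 and 0.225, with a pseudocount of 1 they became 0.0585 and 0.139, and leaving out liver passage 1 or 3 gave 0.196 or 0.254 for liver. Shisa2, known in vertebrate embryos for retaining Frizzled inside the cell, was at least 2-fold higher than parental cells in both sub-lines, at 351.8 and 581.5 in bone and 364.1 and 394.9 in liver, against 147.3 (limma adjusted p = 0.243 and 0.408). Lgr6, a receptor for R-spondins, gave 1519 and 1308 in bone and 575 and 734.9 in liver, with 692.2 in parental cells, and every bone value lay above every other array. Notum, an enzyme that inactivates Wnt ligands, gave 90.3 and 63.7 in bone and 34 and 17.8 in liver, with 44.8 in parental cells (1.16 ± 0.26 for bone against liver; limma adjusted p = 0.163, or 0.0461 with early or final stage as a block).

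Of 24 cytoplasmic and nuclear transducers 0 were called (1 at an unadjusted p under 0.05 for bone against parental, where 8.17% of all genes were, and 0 in the other comparisons). Ctnnb1, which encodes beta-catenin, ranged by 0.25 log2 units, with 4272 and 4479 in bone, 4547 and 4389 in liver and 5092 in parental cells. Of 10 planar polarity genes 0 were called (1, 1 and 3 at an unadjusted p under 0.05 for bone against parental, liver against parental and bone against liver, with 8.17%, 7.48% and 14.1% of all genes). Their median for bone against parental was -0.38, with 10 of 10 below 0. After median centring 8 of 10 were below 0, and after quantile normalization 10 of 10. Of all 12587 genes 6588 were below 0, or 5450 after median centring and 6227 after quantile normalization. Prickle1 gave 107.2 and 205.1 in bone, 107 and 49.9 in liver and 198.3 in parental cells, and the cadherin Celsr1 gave 58.7 and 72.8 in bone against 200.6 and 105.3 in liver, with 120.1 in parental cells. Of 14 tested target genes 0 were called (0, 1 and 3 at that threshold in the same order of comparisons, beside the same shares of all genes). Myc gave 833 and 819.6 in bone, 539.1 and 1212 in liver and 745.5 in parental cells. Ccnd1, the gene of cyclin D1, ranged by 0.38 log2 units. Tnfrsf19, a receptor also known as Troy, was brightest at bone passage 3 (147.8), with 30.6 at bone passage 6, 19.4 and 7.6 in liver and 27.7 in parental cells. Without bone passage 6 its difference between bone and liver was 2.5 (limma adjusted p = 0.0313), against 1.6 with both passages (adjusted p = 0.295). That bone arm is the 1 array just named as the brightest, and its own residual spread then comes from the liver pair alone, beside the prior that limma shares across genes.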

How the data were processed

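The members and the gene lists were chosen with earlier results of these data known. Per the labels, biotin-labelled cRNA was made from 5 ug RNA, isolated with an RNeasy kit. The deposited values are linear intensities, 1 for each probe set and array. The submitters' processing notes name RMA, but the values are not on RMA's log2 scale, and with 2% trimmed from both tails every array had a mean of 150. Further steps are not given in the sources used here. Intensities were converted to log2(intensity + 16), which understates differences of dim genes. Names came from the platform annotation, in which 34945 probe sets had 1 gene, 932 had several and 9211 were not listed. The brightest probe set stood for its gene, and 12587 of 18193 genes whose highest intensity reached 25.1 were tested with limma 3.58.1 in R 4.3.3 (3 lines as groups, 2 residual degrees of freedom, prior 4.21, Benjamini-Hochberg adjustment over all genes), after a test on simulated data. Parental cells, with 1 array, were taken to have the spread seen between passages. Every member is accounted for. Members 2-fold apart between any 2 arrays or among the 10 brightest have values for each array. Per pathway list, up to 5 genes of widest range could be named, with Sostdc1, Ctnnb1, Myc and Ccnd1. Alternatives covered the filter, pseudocount, scaling, probe set choice, prior, fold threshold, stage as a block and each passage left out. With 5 arrays, the number of arrays limits precision.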

Additional observations from a re-analysis of the deposited data

Results flagged for a closer look

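The 8 members at least 2-fold apart between some pair of arrays were checked for opposite directions in bone and liver, either with both arrays of each sub-line on opposite sides of the parental array or between final and early passage. This held for 5 results. The share of all genes with such opposite directions was not computed, and the 8 members were picked by their range on these same arrays. The count is therefore no trait of the Wnt genes. For Fzd8, both bone arrays were below and both liver arrays above the parental array, with mean log2 differences of -0.84 and 0.24 that lie -1.09 apart (limma adjusted p = 0.297 for bone against liver). Final against early passage was lower in bone and higher in liver for Sfrp1 (-0.62 and 0.79, apart by -1.41), Wnt3a (-1.07 and 0.28, apart by -1.34), Wnt5b (-1.08 and 0.14, apart by -1.21) and Axin2 (-0.61 and 0.34, apart by -0.95). These 4 differences were not tested, since each passage was measured once. The second Axin2 probe set gave -0.96 and -0.084, so both of its differences were below 0. All 5 Sfrp1 probe sets had the same directions. The groups hold at most 2 arrays, so no array could be checked as an outlier within its group.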

How the results depend on the processing

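The count of members called by limma was 0 for bone and for liver against parental cells under all alternatives run, and for bone against liver under all but 1: leaving out single passages gave 0 to 1. Replicate numbers follow accession order and pair nothing by themselves. With stage (early or final) as a replicate block over the 4 sub-line arrays it was 0 for bone against liver (4 at an unadjusted p under 0.05), and Notum alone of the differences printed came past the threshold. No paired analysis against parental cells was possible because they have 1 array. The adjusted p of Wnt10a against parental cells lay between 0.0653 and 0.470 for bone and between 0.281 and 0.697 for liver. Of 480 repeats of the gene differences, 463 kept direction and side of the threshold, 3 came past it, 6 (all Sostdc1) no longer passed and 8 changed sign, all on leaving out a passage. The ranges of these were -0.22 to 0.40 (Sfrp1), -0.89 to 0.18 (Wnt3a) and -0.50 to 0.044 (Wnt4) for bone against parental, -0.64 to 0.15 (Sfrp1) for liver against parental, and -0.082 to 0.53 (Axin2), -0.81 to 0.26 (Lef1), -0.77 to 0.30 (Wnt5b) and -0.062 to 0.73 (Sfrp1) for bone against liver.

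Members with a range of at least 2-fold numbered 8, and 5 without bone passage 6. Members at least 2-fold apart in every pair numbered 1 for bone against parental, 2 with a pseudocount of 1 or the mean of all probe sets and 2 to 4 without a bone passage. They numbered 2 for liver against parental, 3 with a pseudocount of 1, 1 with a filter on the mean, 0 with a pseudocount of 64 or a 3-fold threshold and 2 to 3 without a liver passage. For bone against liver they numbered 0, and 0 to 1 without a passage. For bone passage 6 against 3 the count of 4 was 3 with a filter on the mean, 1 with median centring, quantile normalization or the mean of all probe sets, and 0 with a pseudocount of 64 or a 3-fold threshold. For liver passage 3 against 1 it was 0, and 1 with a pseudocount of 1. For bone against liver at passage 3 it was 1, and 0 with a filter on the mean, a pseudocount of 64 or a 3-fold threshold. Causes were not tested. Values near the filter of 25.1 are close to background, and no detection calls were used.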
